A study of Mus musculus with 6 samples.

Results

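The growth hormone, insulin-like growth factor (IGF) and epidermal growth factor receptor axis of the liver was examined through 10 genes chosen by name, out of 29981 gene rows in the deposited table. They were the receptor genes Ghr, Prlr and Egfr, the signalling genes Stat5b and Socs2, the hormone gene Igf1, and the genes of its carriers in blood, Igfals, Igfbp1, Igfbp2 and Igfbp4. All 10 were found, 9 in a row of their own and Stat5b in a row that also names the transcript AK088966. Liver RNA was sequenced from C57BL/6 mice in which floxed Abca1, which encodes a cholesterol and phospholipid transporter, was deleted in hepatocytes by a Cre recombinase under the Albumin promoter (HSKO, 3 libraries), and from floxed control mice, labelled wild type (WT, 3 libraries). All animals went without food from 9 am to 1 pm before the livers were taken, while age and sex are not stated in the labels. No label says which animal a library came from, so the tests weigh differences against the variation among these libraries, which may be technical. The Albumin promoter directs Cre to hepatocytes, and deletion in other liver cell types cannot be read from these liver libraries.

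Growth hormone from the pituitary binds its receptor on hepatocytes, and the kinase JAK2 then phosphorylates the transcription factor STAT5B. STAT5B drives Igf1 and Igfals, and also Socs2, whose product dampens the same signal. Most circulating IGF-1 is made in the liver and travels bound to IGF-binding proteins, with the acid-labile subunit, the product of Igfals, completing the largest of these complexes. The EGF receptor is abundant on hepatocytes, and its hepatic level is known in mice to depend on growth hormone.

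Sequences upstream of the members bear on this pathway because STAT5 proteins bind the palindrome TTCNNNGAA. RefSeq promoter windows on GRCm38.p6, the assembly of mm10, ran from 250 bases before to 50 bases after a transcript start. Socs2 had no window and was not searched. The other members, 9 of the 10, were matched in 16 windows. The palindrome, which reads the same on both strands, was found in 3 of these 16 windows, belonging to 2 genes, Igfals and Prlr. Over all 32851 windows it was present in 8.30%. The motif GTAAACA, a form of the site of forkhead transcription factors, searched on both strands, was found in 2 member windows, 1 of Igfals and 1 of Prlr, where it did not overlap the palindrome, against 3.65% of all windows. Below are shown the 3 windows with the palindrome, which is in capitals, and the upstream window of Ghr, in which these letters do not occur. A match describes letters only and is not evidence of binding.
Igfals, plus strand, chr17:24877594-24877893: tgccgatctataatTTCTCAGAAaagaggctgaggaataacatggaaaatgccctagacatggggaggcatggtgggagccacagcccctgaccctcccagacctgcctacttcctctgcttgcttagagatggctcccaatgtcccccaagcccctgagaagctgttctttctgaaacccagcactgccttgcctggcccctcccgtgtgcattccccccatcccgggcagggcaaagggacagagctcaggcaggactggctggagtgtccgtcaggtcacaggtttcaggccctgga
Igfals, plus strand, chr17:24877981-24878280: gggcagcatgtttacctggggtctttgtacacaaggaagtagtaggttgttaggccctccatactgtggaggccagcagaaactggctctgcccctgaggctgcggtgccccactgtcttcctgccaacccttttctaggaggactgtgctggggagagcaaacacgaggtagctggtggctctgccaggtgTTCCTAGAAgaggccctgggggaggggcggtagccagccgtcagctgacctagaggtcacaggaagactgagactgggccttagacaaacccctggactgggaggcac
Prlr, plus strand, chr15:10223656-10223955: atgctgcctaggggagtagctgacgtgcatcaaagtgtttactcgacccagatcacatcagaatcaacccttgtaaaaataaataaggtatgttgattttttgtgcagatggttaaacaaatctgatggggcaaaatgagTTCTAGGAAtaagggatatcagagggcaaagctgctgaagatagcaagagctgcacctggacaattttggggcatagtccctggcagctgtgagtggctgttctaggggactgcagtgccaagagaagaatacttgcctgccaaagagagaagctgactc
Ghr, minus strand, chr15:3583303-3583602: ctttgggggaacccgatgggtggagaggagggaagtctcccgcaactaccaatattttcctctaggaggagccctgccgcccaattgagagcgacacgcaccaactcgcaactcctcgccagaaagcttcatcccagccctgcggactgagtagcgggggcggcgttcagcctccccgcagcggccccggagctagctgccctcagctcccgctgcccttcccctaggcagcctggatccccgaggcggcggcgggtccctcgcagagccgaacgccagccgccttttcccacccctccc
The palindrome began at position -236 and -58 from the transcript start in the Igfals windows and at -110 in the Prlr window. Prlr had 3 windows and Igfals 3, so in each gene at least 1 alternative start lacked it.

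The libraries were shallow, which limits every value that follows. Whole reads recovered from the deposited values summed to between 631020 and 702013 in HSKO and between 838637 and 933319 in WT, and 1 row, BC071253, held 46.2% to 57.8% of them in HSKO and 43.1% to 52.9% in WT. What that row represents was not determined, and it enters every share of all reads. Abca1 had 2, 1 and 2 reads in HSKO and 20, 36 and 34 reads in WT, so all 6 libraries matched their labels. The liver label was checked against 13 hepatocyte markers, all of which had reads in the files. Together they took 1.21% ± 0.333 of reads in HSKO and 2.86% ± 0.752 in WT (SD, n = 3; exact two-sided permutation p = 0.1, and 3 against 3 libraries allow no smaller one). Of reads outside BC071253 they took 2.56% ± 0.350 in HSKO and 5.37% ± 0.961 in WT (exact permutation p = 0.1). With the deposited scaling, 5 of the 13 markers were called lower, where 11.6% of all tested genes were. Their median log2 fold change was -0.58, against 0.07 for all tested genes. With single libraries left out, 1 to 6 of the 13 were called lower. In bulk liver, fewer cells of a type and less RNA per cell cannot be told apart.

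With the deposited scaling, growth hormone receptor transcript was called lower and prolactin receptor transcript higher in HSKO livers. Igf1, its carriers with enough reads and Egfr did not pass the test. The calls of Ghr and Prlr were lost under some other settings and without some single libraries, as given below. Values below are reads divided by the size factor of the library. Fold changes are given as HSKO minus WT in log2(value + 1), a scale that understates the change of low genes, and were tested with limma in the 2750 rows whose mean reached 10. Of the 7 members that reached this mean, 1 was called higher, 1 lower and 5 neither at a Benjamini-Hochberg adjusted p below 0.05, where 28.5% of all tested genes were called higher and 11.6% lower. The share of members called was 28.6%, against 40.1% of all genes tested. With 7 members tested, this difference is no result about the members. Groups did not overlap for 1 of the 7, Prlr, against 51.5% of all genes tested. With edgeR 46.7% of genes were called and, of the members, Ghr. With scaling to hepatocyte markers 40.9% were called and, of the members, Prlr, and with scaling to total reads 38.0% were called lower, as were 5 of the 7 members. The median log2 fold change of the 7 was -0.11, with 6 below 0, and that of all genes was 0.07. The median depended on abundance, and among the 688 genes with a mean of at least 50 it was 0.88. The 5 members among these, Ghr, Igf1, Egfr, Igfbp2 and Igfbp4, lay at -1.61 to -0.95 relative to that median. The 7 tested members are not the whole set, and the other 3, Stat5b, Socs2 and Igfbp1, had too few reads for the test.

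**Figure D1:**
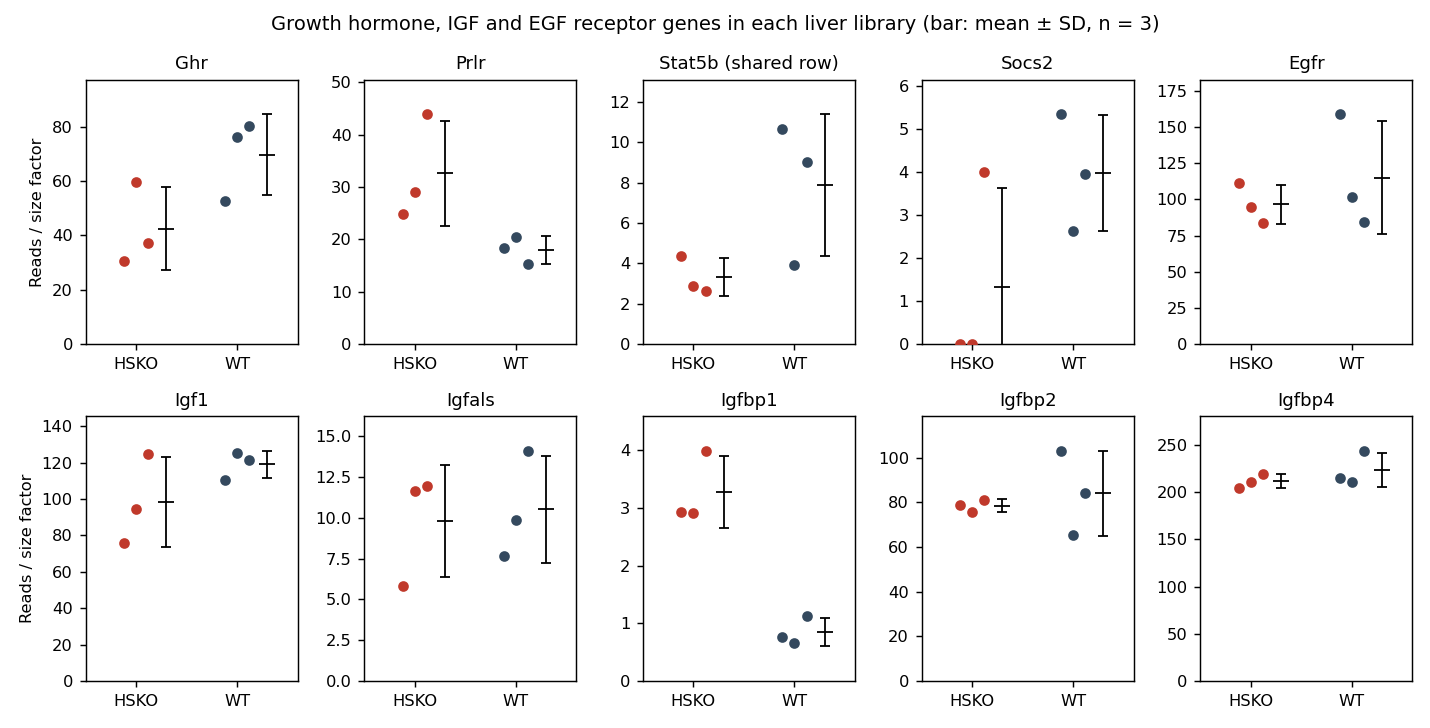
Reads divided by the size factor (vertical axis, starting at 0, one scale per gene) in the 3 HSKO and 3 WT libraries, with points for libraries and bars for mean ± SD. The HSKO points of Prlr, between 24.8 and 43.9, lie above the WT points, while those of Igf1, Igfals, Igfbp2, Igfbp4 and Egfr overlap the WT points.

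The growth hormone receptor gene, Ghr, lies on the minus strand of chromosome 15 from 3317760 to 3583492 (mm10, GENCODE M21). Its values were 30.7, 59.6 and 37.2 in HSKO livers, against 52.7, 76.3 and 80.1 in WT livers, from 21, 41 and 28 reads in HSKO and 69, 116 and 142 reads in WT. HSKO replicate 2 lay above WT replicate 1, so the groups overlapped. The mean was 42.5 ± 15.2 in HSKO and 69.7 ± 14.9 in WT (SD, n = 3). The log2 fold change was -0.73 (SE 0.28, 95% interval -1.32 to -0.14, limma adjusted p = 0.0461). The call was lost without HSKO replicate 1 (limma adjusted p = 0.189), HSKO replicate 3 (0.103), WT replicate 2 (0.151) or WT replicate 3 (0.143), with no minimum mean (0.123) and with no mean-variance trend (0.0830). When libraries were scaled to the hepatocyte markers the log2 fold change was -0.17 (adjusted p = 0.736), below 0 still but far from the threshold.

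The prolactin receptor gene, Prlr, lies on the plus strand of the same chromosome from 10177238 to 10349180, and its product belongs to the same cytokine receptor class as the growth hormone receptor and also signals through STAT5. Another gene, Gm21973, overlaps it on the same strand, so its reads may be shared. Its values were 24.8, 29.1 and 43.9 in HSKO livers, against 18.3, 20.4 and 15.2 in WT livers. Every HSKO library lay above every WT library, and HSKO replicate 3 was the highest. The mean was 32.6 ± 9.996 in HSKO and 18.0 ± 2.60 in WT (SD, n = 3). The log2 fold change was 0.79 (SE 0.29, 95% interval 0.19 to 1.40, limma adjusted p = 0.0360). In reads, Prlr had 17, 20 and 33 in HSKO and 24, 31 and 27 in WT, so its call rests on the scaling of libraries that differ in depth. The call was lost under upper quartile scaling (adjusted p = 0.146), total reads (0.713), total reads without the most abundant row (0.358), no minimum mean (0.130), quantile normalization (0.0647), edgeR (0.0799), DESeq2 (0.147) or the replicate number as a block (0.0518). It was also lost without any single library (0.0535 to 0.145) other than HSKO replicate 1.

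A ratio of reads within a library does not depend on how libraries are scaled. Prlr had 0.810, 0.488 and 1.18 reads per Ghr read in HSKO livers, against 0.348, 0.267 and 0.190 in WT livers. This pair was chosen after its values were seen and is given without a test. The means were 0.825 ± 0.346 in HSKO and 0.268 ± 0.0788 in WT (SD, n = 3), and the groups did not overlap. By contrast, Igf1 had 2.48, 1.59 and 3.36 reads per Ghr read in HSKO livers and 2.10, 1.64 and 1.51 in WT livers, which overlapped. Transcript lengths do not enter the comparison between groups, since the same pair of genes is compared in each.

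**Figure D2:**
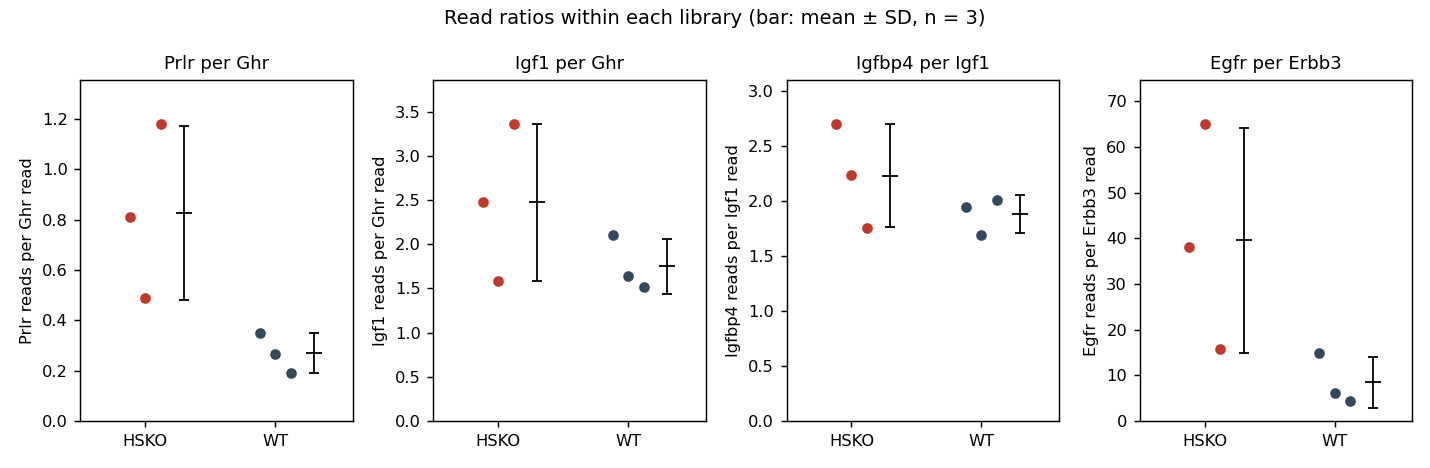
Reads of the first gene per read of the second (vertical axis, starting at 0) in each HSKO and WT library, with points for libraries and bars for mean ± SD, n = 3. The HSKO points for Prlr per Ghr, from 0.488 to 1.18, lie above the WT points. So do those for Egfr per Erbb3, from 15.8 to 65.0, while those of the other pairs overlap. The pairs were chosen after the values were seen, and Erbb3 had few reads in HSKO.

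The signal transducer Stat5b and the feedback inhibitor Socs2 had lower mean values in HSKO livers, from very few reads and below the minimum mean of the test. The Stat5b row, on chromosome 11, had 3, 2 and 2 reads in HSKO and 14, 6 and 16 reads in WT, which gives values of 4.38, 2.91 and 2.66 in HSKO against 10.7, 3.95 and 9.02 in WT. HSKO replicate 1 lay above WT replicate 2, so the groups overlapped. The ratio of HSKO to WT reads, corrected for size factors, was 0.421 (exact 95% interval 0.158 to 0.960, which covers counting error only). Without the minimum mean its limma adjusted p was 0.294, and with edgeR 0.188. With total reads it was 0.0468, the lowest of 4 other scalings. The reads are shared with AK088966 and cannot be assigned to Stat5b alone.

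Socs2, on chromosome 10, had 0, 0 and 3 reads in HSKO livers and 7, 4 and 7 reads in WT livers. A count of 0 allows up to 3 reads, so no level can be given for HSKO replicates 1 and 2. The read ratio of HSKO to WT was 0.361 (exact 95% interval 0.0682 to 1.24), and no difference was detectable at this depth (limma without the minimum mean, adjusted p = 0.229). The ratio of Socs2 to Ghr in these libraries rests on the pseudocount, so its difference is given only with the dependence on processing.

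Igf1 transcript, which encodes the hormone that carries most of the growth effect of growth hormone, did not differ detectably between the groups. Igf1 spans 87858265 to 87937042 on chromosome 10, and its values were 76.0, 94.5 and 125 in HSKO livers, against 111, 125 and 121 in WT livers. HSKO replicate 3 was level with the highest WT library, while HSKO replicates 1 and 2 lay below all of them. The mean was 98.5 ± 24.7 in HSKO and 119 ± 7.45 in WT (SD, n = 3). The log2 fold change was -0.30 (SE 0.25, 95% interval -0.81 to 0.22, limma adjusted p = 0.342). The scaling decided both its call and its sign. It was called lower under total reads (-0.97, adjusted p = 0.00626), total reads without the most abundant row (-0.78, 0.00773), quantile normalization (-0.74, 0.0250) and upper quartile scaling (-0.60, 0.0433), and was above 0 with scaling to hepatocyte markers (0.27, 0.491).

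The carrier genes with enough reads had similar means in both groups. Igfals, on chromosome 17, was at 5.85, 11.6 and 11.97 in HSKO livers and at 7.63, 9.87 and 14.1 in WT livers, from 4 to 25 reads a library, a log2 fold change of -0.11 with a wide 95% interval of -0.996 to 0.77 (limma adjusted p = 0.849). Igfbp2, on chromosome 1, encodes a binding protein known to be raised in fasting, and was at 78.9, 75.6 and 81.1 in HSKO livers and at 103, 65.1 and 84.0 in WT livers. The HSKO values lay inside the WT range, and the log2 fold change was -0.07 (95% interval -0.59 to 0.44, limma adjusted p = 0.829). Igfbp4, on chromosome 11, encodes a binding protein that holds IGF-1 inactive until it is cleaved, and gave the most reads of the 10 genes. It was at 205, 211 and 219 in HSKO livers and at 215, 211 and 244 in WT livers, a log2 fold change of -0.07 (95% interval -0.54 to 0.39, limma adjusted p = 0.808). These intervals leave room for a change of either sign. Igfbp4 was called lower with quantile normalization (-0.65, adjusted p = 0.0229), total reads (-0.75, 0.0140) and total reads without the most abundant row (-0.56, 0.0334), and Igfbp2 with total reads (-0.74, 0.0243).

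Igfbp1, whose product binds IGF-1 and is known to be induced when insulin is low, was barely detected. It had 2, 2 and 3 reads in HSKO livers, against 1, 1 and 2 reads in WT livers, which gives values of 2.92, 2.91 and 3.99 in HSKO against 0.763, 0.658 and 1.13 in WT. The values did not overlap, as was so for 19.6% of the 6673 rows whose mean lay between 1 and 10. The size-corrected read ratio of HSKO to WT was 3.79 (exact 95% interval 0.964 to 17.7, so equality is included). Without the minimum mean, limma gave an adjusted p of 0.300 and edgeR of 0.353. The log2 ratio of Igfbp1 to Igf1 was -4.52 ± 0.20 in HSKO and -6.03 ± 0.21 in WT (SD, n = 3, exact two-sided permutation p = 0.1, 0.4 adjusted over the 4 ratios tested, Socs2 to Ghr included), higher in 3 of 3 HSKO libraries than in any WT library. That of Igfbp2 to Igf1 was -0.29 ± 0.34 in HSKO and -0.52 ± 0.41 in WT (exact permutation p = 0.5). With 1 to 3 Igfbp1 reads a library, the size of the Igfbp1 ratio depends on the pseudocount.

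Egfr, the epidermal growth factor receptor gene on chromosome 11 from 16752203 to 16918158, was at 111, 94.5 and 83.8 in HSKO livers and at 159, 101 and 84.6 in WT livers. WT replicate 1 stood highest, and the other WT libraries lay among the HSKO values or close to them. The mean was 96.5 ± 13.8 in HSKO and 115 ± 38.9 in WT (SD, n = 3). The log2 fold change was -0.21 (SE 0.26, 95% interval -0.76 to 0.34, limma adjusted p = 0.538). Without WT replicate 1 the log2 fold change was 0.05. Egfr was called lower with total reads (-0.88, adjusted p = 0.00698) and with total reads without the most abundant row (-0.69, 0.0218), and was above 0 with scaling to hepatocyte markers (0.36, 0.462). The log2 ratio of Egfr to Ghr was 1.21 ± 0.59 in HSKO and 0.69 ± 0.79 in WT (SD, n = 3, exact two-sided permutation p = 0.4, 0.5 adjusted over the 4 ratios).

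**Figure D3:**
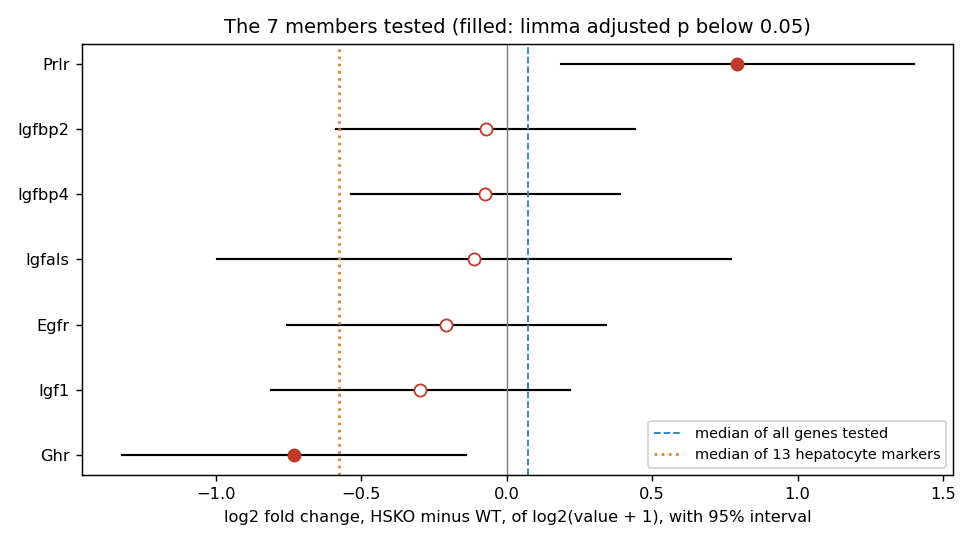
Log2 fold change, HSKO minus WT (horizontal axis), of the 7 members tested, with 95% intervals as lines and filled points for a limma adjusted p below 0.05. Prlr at 0.79 and Ghr at -0.73 are called, the other 5 lie between -0.30 and -0.07, and vertical lines mark the medians of all genes (0.07) and of the hepatocyte markers (-0.58).

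The members' log2 fold changes moved with the scaling of the libraries. Over 7 scalings the log2 fold change of Ghr lay between -1.40 and -0.17 and that of Prlr between 0.15 and 1.34. Taken relative to the median of all genes under the same scaling, Ghr lay between -1.02 and -0.78 and Prlr between 0.68 and 0.78. Igf1 lay between -0.72 and -0.35, Egfr between -0.63 and -0.26, Igfbp4 between -0.63 and -0.12, Igfbp2 between -0.44 and -0.12 and Igfals between -0.22 and 0.05 on this relative scale. The 7 scalings were the deposited size factors, upper quartile, quantile, TMM in edgeR, hepatocyte markers, total reads, and total reads without the most abundant row. They share all 6 libraries and so do not count as repeated tests. Most of them move all genes of a library alike, so the narrower ranges on the relative scale follow from subtracting the median and are no sign of stability. Ghr was called lower in 6 of them, all but the hepatocyte marker scaling, and Prlr higher in 2, the deposited and the hepatocyte marker scaling.

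**Figure D4:**
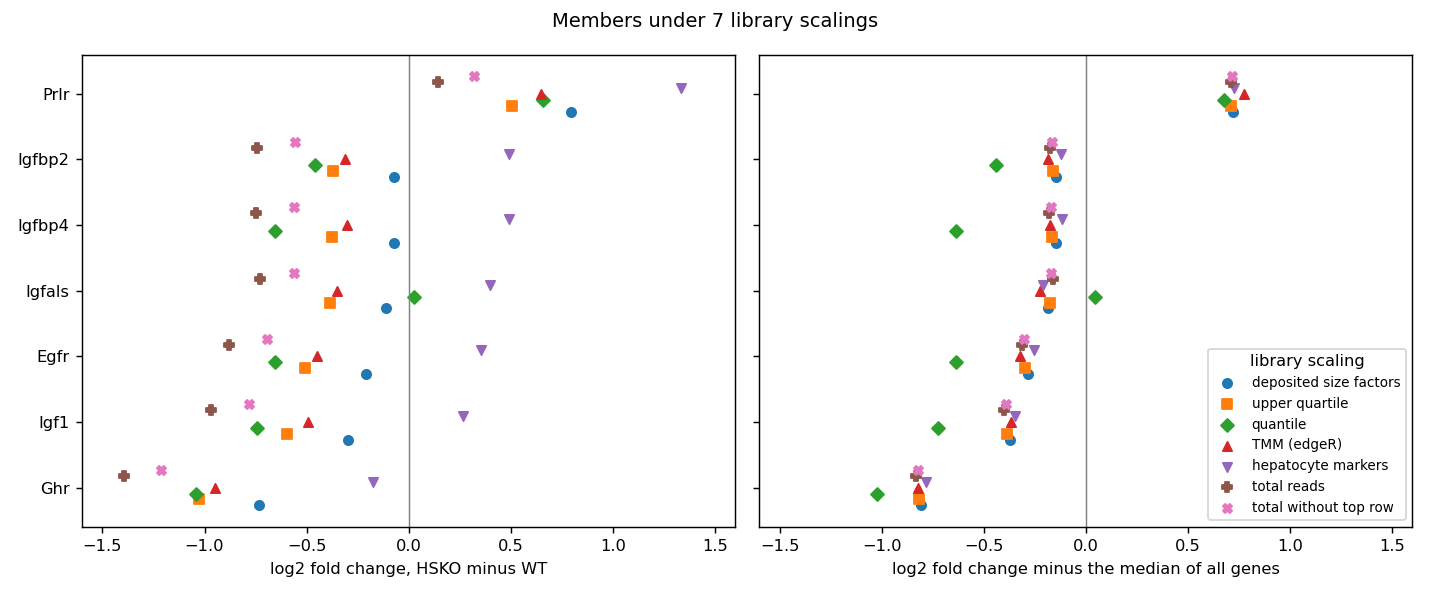
Log2 fold change, HSKO minus WT (left panel), and the same minus the median of all genes under that scaling (right panel), for the 7 members tested, with a marker for each of 7 library scalings. On the left Ghr spreads from -1.40 to -0.17 and Prlr from 0.15 to 1.34, and on the right Ghr lies between -1.02 and -0.78 and Prlr between 0.68 and 0.78.

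Levels of different genes were compared per kilobase of the longest coding transcript in GENCODE M21. Igfbp2 was highest, at 60.1 ± 2.12 per kilobase in HSKO and 64.3 ± 14.5 in WT (SD, n = 3), followed by Igfbp4 at 55.2 ± 1.94 in HSKO and 58.2 ± 4.67 in WT. In HSKO these neighbours did not overlap and in WT they did. Igf1, Ghr and Egfr formed the next group, at 14.0 ± 3.51, 10.2 ± 3.63 and 9.45 ± 1.35 per kilobase in HSKO and 16.9 ± 1.06, 16.7 ± 3.56 and 11.3 ± 3.81 in WT, and neighbours in this group overlapped in both genotypes. Igfals followed at 3.74 ± 1.31 in HSKO and 4.01 ± 1.25 in WT. Prlr overlapped Igfals in HSKO at 3.29 ± 1.01, whereas in WT, at 1.82 ± 0.26, it lay below Igfals and overlapped Socs2. Igfbp1 was at 2.15 ± 0.41 in HSKO, overlapping Prlr, and lowest of all in WT at 0.557 ± 0.162. Stat5b and Socs2 were at 1.79 per kilobase or less in both genotypes. Igf1 has 7 coding transcripts of very different length, and per kilobase of its median coding transcript, a scale on which Igfbp4 led, it was at 70.8 ± 17.8 in HSKO and 85.5 ± 5.36 in WT, overlapping Igfbp2 in both. On that scale Prlr was at 12.8 ± 3.91 in HSKO and 7.03 ± 1.02 in WT, above Igfals without overlap in both. The place of Prlr among the members thus depends on the transcript length used.

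By the likeness of mean-centred log2 values over the 6 libraries, the tested genes closest to Igf1 were Atp5f1, Rpl8 and Cmtm8, whose row also names a second transcript. Their root mean square differences were 0.04995, 0.0557 and 0.0715, where the median over all tested genes was 0.551. Among those closest to Egfr were Mlec and Pcbp1, at 0.157 and 0.162, against a median of 0.569. The closest genes lie below these medians by selection, so the values are descriptive only.

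Few other genes of the pathway had enough reads for the test. Of 51 further genes of growth hormone and JAK-STAT signalling, the IGF system and the EGF receptor family with a row, 9 reached the minimum mean, and of these 2 were called higher, 2 lower and 5 neither, where 28.5% of all tested genes were called higher and 11.6% lower. The 4 of 9 called were near the 40.1% of all tested genes called in either direction, so the count is no result about the pathway. The called genes were Nrg4 and Adam17 among the higher and Onecut1 and Insr among the lower. Nrg4, which encodes a neuregulin ligand of the EGF receptor family, was at 110, 106 and 145 in HSKO livers, against 74.8, 57.9 and 41.2 in WT livers, with every HSKO library above every WT library. Its log2 fold change was 1.07 (SE 0.26, limma adjusted p = 0.00385), and it was called higher in 6 of the 7 scalings and without each library in turn. Total reads was the exception (0.40).

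Adam17, whose protease releases EGF receptor ligands from the cell surface, was at 20.5, 18.9 and 37.2 in HSKO livers and at 13.7, 14.5 and 7.90 in WT livers (log2 fold change 1.003, limma adjusted p = 0.0249). It was called in 4 of the 7 scalings, and not without HSKO replicate 3 (adjusted p = 0.127) or WT replicate 3 (0.131), with DESeq2 (0.0919), with no minimum mean (0.0847) or with edgeR on all rows (0.0514). Onecut1, a hepatocyte transcription factor gene in a row shared with Gm16551, was at 8.77, 10.2 and 9.31 in HSKO livers and at 15.3, 27.6 and 18.0 in WT livers (log2 fold change -0.99, limma adjusted p = 0.0254). It was not called without WT replicate 2 (0.185) or WT replicate 3 (0.0650). Insr, the insulin receptor gene, was at 10.2, 11.6 and 6.65 in HSKO livers and at 17.6, 24.3 and 18.0 in WT livers (log2 fold change -1.02, limma adjusted p = 0.0238), and lost its call without HSKO replicate 3 (0.0656), WT replicate 2 (0.133) or WT replicate 3 (0.0612). Neither Onecut1 nor Insr was called with hepatocyte marker scaling, or by limma with no minimum mean (0.0883 for Onecut1 and 0.0814 for Insr). Jak1 and Stat3 had log2 fold changes of -0.86 and -0.75 and did not pass (limma adjusted p = 0.0660 and 0.0935). Their calls also depended on the scaling. Of the 4 tested genes of growth hormone and JAK-STAT signalling outside the members, 1 was called lower with the deposited scaling. With upper quartile scaling, edgeR and each total read scaling 3 were called lower, and with hepatocyte marker scaling 0. Errfi1, an inhibitor of the EGF receptor, had a log2 fold change of 0.01.

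A pair of genes below the minimum mean were named after their values were seen. Erbb3, a member of the EGF receptor family that binds neuregulins, had 2, 1 and 4 reads in HSKO livers, against 14, 25 and 34 reads in WT livers, which gives values of 2.92, 1.45 and 5.32 in HSKO against 10.7, 16.5 and 19.2 in WT. The groups did not overlap, and the size-corrected read ratio of HSKO to WT was 0.208 (exact 95% interval 0.0807 to 0.450). Without the minimum mean, where 1.53% of 13807 rows were called lower, its log2 fold change was -2.03 (limma adjusted p = 0.00414), and edgeR on all rows gave an adjusted p of 0.000453. The limma value stayed below 0.05 in 4 other scalings (0.000125 to 0.0429), but lay between 0.0871 and 0.209 when any single library was left out. Egfr had 38.0, 65.0 and 15.8 reads per Erbb3 read in HSKO livers and 14.9, 6.16 and 4.41 in WT livers. The HSKO ratios rest on 2, 1 and 4 Erbb3 reads, and this pair too was chosen after its values were seen.

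Igfbp3, whose product forms the main circulating complex with IGF-1 and the acid-labile subunit and which in rat liver is known to come mostly from non-parenchymal cells, had no read in HSKO livers and 5, 8 and 8 reads in WT livers. The WT level was 3.23-fold that of a limit of 3 reads over the 3 HSKO libraries. This figure takes the WT reads as exact and leaves out variation among libraries, so it is no lower bound. Without the minimum mean its limma adjusted p was 0.0108, and 0.0391 to 0.161 when single libraries were left out. The stellate cell and fibroblast markers summed to 23.4 to 43.6 in HSKO livers and 54.2 to 57.0 in WT livers over 11 genes, and the endothelial markers to 20.4 to 36.5 in HSKO and 40.4 to 50.8 in WT over 10 genes, so both sums were lower in every HSKO library than in any WT library. The same held for the 13 hepatocyte markers, which summed to 9254.97 to 13658.8 in HSKO livers and 14954.5 to 17392.1 in WT livers. Kupffer cell markers summed to 39.3 to 63.8 in HSKO livers and 51.1 to 88.2 in WT livers over 10 genes. Their part in the Igfbp3 value was not tested.

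Male-biased liver genes, many of which depend in mice on pulsed growth hormone acting through STAT5B, were in part lower in HSKO livers. Of 13 tested genes on this list, 6 were called lower, against 11.6% of all genes tested, and 7 neither, with a median log2 fold change of -0.63, where the median of all genes was 0.07 and that of the hepatocyte markers -0.58. The called genes were Hsd3b5, Nudt7, Ces2e, Cyp2d9, Cyp4a12a and Mup3. Hsd3b5, a steroid dehydrogenase gene, was at 11.7, 26.2 and 16.0 in HSKO livers and at 53.4, 35.5 and 37.2 in WT livers, without overlap (log2 fold change -1.23, SE 0.31, limma adjusted p = 0.00412). Ces2e, a carboxylesterase gene, had -1.57, Cyp4a12a -1.23, Nudt7 -1.01 and Cyp2d9 -0.87 (adjusted p from 0.00704 to 0.0203).

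Mup3, which encodes a major urinary protein and shares its row with Mup21 and its sequence with other family members, had -0.69 (limma adjusted p = 0.0455) with overlapping groups. Its value is uncertain for that reason, as are those of Hsd3b5, Ces2e, Cyp2d9 and Cyp4a12a, which have close paralogs. Hsd3b5 and Nudt7 kept their calls without each library in turn, and the other 4 lost theirs without at least 1 of the libraries. With the hepatocyte marker scaling the list median was -0.06 and none of its genes was called lower by limma, while the 5 others beside the deposited one called 10 to 12 of its genes lower. Those 5 scalings also called 502 to 1044 of all 2750 tested genes lower, and 10 to 12 of the 13 hepatocyte markers. The counts are thus not particular to the male-biased list. Without WT replicate 3, 3 genes of the male-biased list were called lower.

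**Figure D5:**
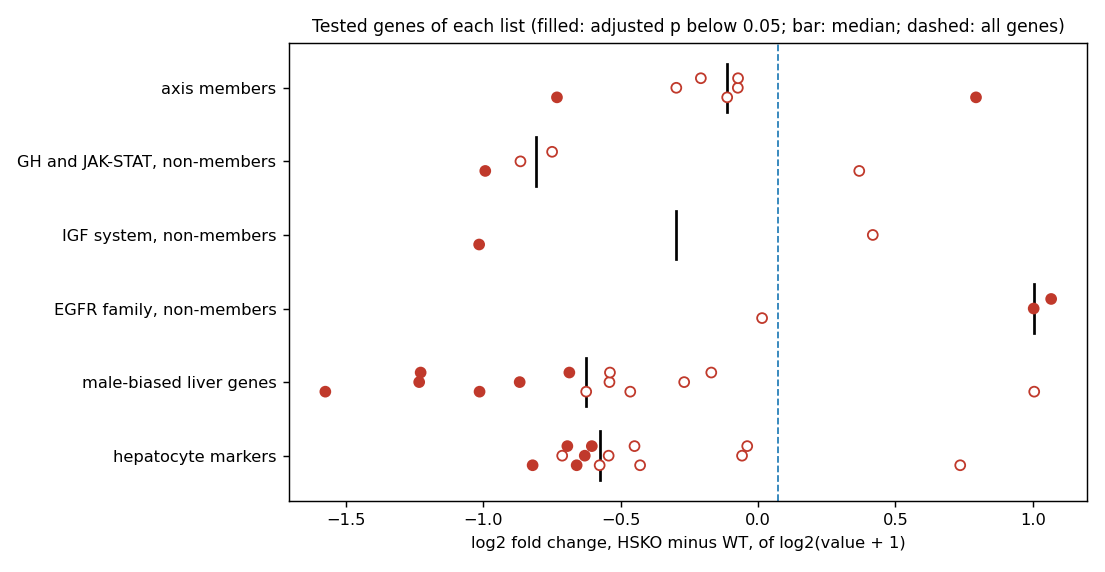
Log2 fold change, HSKO minus WT (horizontal axis), of each tested gene on 6 lists, with filled points for a limma adjusted p below 0.05, a bar at the list median and a dashed line at the median of all genes (0.07). The axis members lie around -0.11 with Ghr and Prlr at the ends, while the male-biased genes and the hepatocyte markers have medians of -0.63 and -0.58.

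Sex differences in liver run through growth hormone, and Prlr and Egfr are known to differ between the sexes in mice, so transcripts of the sex chromosomes were read in every library. Reads of the Y-linked genes Ddx3y, Eif2s3y, Kdm5d and Uty summed to 10, 16 and 6 in HSKO livers and to 18, 26 and 40 in WT livers. Xist had 0, 6 and 4 reads in HSKO and 7, 2 and 1 in WT. Y-linked reads were thus present in all 6 libraries. The reads in this paragraph are not corrected for depth, and size factors were 0.684 to 0.752 in HSKO and 1.31 to 1.77 in WT. They show presence only and are not compared between the groups. Of 18 female-biased liver genes with a row, 12 had no read in any library, among them Cyp2b9, Cyp2b13 and Cyp2a4, and the list summed to 4, 0 and 12 reads in HSKO and to 3, 24 and 15 in WT.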

How the data were processed

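Each gene has a deposited normalized signal in every library. Per the submitters' processing notes the authors used DESeq 1.16.0, RSEM 1.2.9, Bowtie and FastQC 0.11.3 with mm10, with no order stated. How strand was treated, which annotation was used and what was filtered is not stated in the labels or notes, so reads of Igf1 and Egfr cannot be told apart from those of the antisense genes Igf1os and Egfros. Dividing each value by that of 1 read gave whole reads for 100% of values (tolerance 0.001), and size factors of 0.684 to 0.752 in HSKO and 1.31 to 1.77 in WT.

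Log2(value + 1) was tested two-sided with limma 3.58.1 (R 4.3.3), with a mean-variance trend and Benjamini-Hochberg adjustment, in the 2750 rows whose mean reached 10. DESeq2 1.42.0 and edgeR 4.0.16 (quasi-likelihood, TMM) were run on the recovered reads as alternatives, beside other scalings, pseudocounts and filters. They called 909 and 1285 genes. Upper quartile scaling used the rows tested. Fits without the minimum mean for rows under it were added after seeing the data. Exact permutation tests used scipy 1.17.1. The procedure was also run on simulated data, with equal numbers of genes raised and lowered and a single dispersion for all genes. These settings differ from the libraries here, so that run does not show how the procedure performs on them. Intervals of read ratios cover counting error only.

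The members and lists were chosen with earlier results of these data known. The text names all 10 members, Abca1, the called genes of each pathway list (up to 6 by p) and the 3 tested genes most like Igf1 and Egfr, of which 1 is not reported here. Erbb3, Igfbp3, Jak1, Stat3 and Errfi1 were named later. Of the listed genes, Cyp3a41b, Hbb-b1, Hbb-b2 and Hba-a1 had no matching row and are not analysed here.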

Additional observations from a re-analysis of the deposited data

How the results depend on the processing

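Over all genes, 783 were called higher and 320 lower. Genes called higher numbered 391 at a minimum mean of 50, 221 with total reads and 429 with total reads without the most abundant row. Genes called lower numbered 211 with no filter, 118 at a minimum mean of 50, 703 with upper quartile scaling, 25 with hepatocyte marker scaling, 1044 with total reads, 913 with total reads without the most abundant row, 502 with quantile normalization and 601 with edgeR. With single libraries left out, 581 to 822 were higher and 157 to 313 lower, with 159 without WT replicate 2 and 157 without WT replicate 3. The median of all genes shifted by -0.28, -0.09, -0.20, 0.54, -0.64 and -0.47 with upper quartile, quantile, edgeR, hepatocyte marker, total read and reduced total read scaling. Where the filter changed the genes tested, the shift was 0.80 at a minimum mean of 50 and -0.29 with no filter.

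Members called higher, 1 as reported (Prlr), numbered 0 under the replicate block, edgeR with and without a filter, DESeq2, quantile normalization, both total read scalings, upper quartile scaling, a minimum mean of 50 (which leaves Prlr out) and no filter. Members called lower, 1 as reported (Ghr), numbered 0 with no filter, hepatocyte marker scaling and no trend, 2 with upper quartile scaling, 5 with total reads, 4 with total reads without the most abundant row and 3 with quantile normalization. Both counts ranged from 0 to 1 with single libraries left out. Prlr was above 0 and Ghr below 0 in each of these alternatives that tested them.

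With hepatocyte marker scaling the log2 fold changes of Igf1, Igfals, Igfbp2, Igfbp4 and Egfr were 0.27, 0.40, 0.49, 0.49 and 0.36, above 0 where the deposited scaling gave values below it. Igfals was also above 0 with quantile normalization (0.026), without HSKO replicate 1 (0.19) and without WT replicate 3 (0.10), Igfbp2 without WT replicate 1 (0.084) and Egfr without WT replicate 1 (0.049), and the cause was not tested. With single libraries left out Igfals lay between -0.30 and 0.19, Igfbp2 between -0.24 and 0.084 and Egfr between -0.40 and 0.049. The difference in the log2 ratio of Socs2 to Ghr was -0.77 with a pseudocount of 1 and 0.30 with a pseudocount of 10 (exact permutation p = 0.5 with 1), and with 0 Socs2 reads in HSKO replicates 1 and 2 it rests on that choice. With single libraries left out the differences lay between -1.61 and -0.12 for Socs2 to Ghr, 0.22 and 0.97 for Egfr to Ghr, 1.39 and 1.59 for Igfbp1 to Igf1 and 0.02 and 0.43 for Igfbp2 to Igf1. The difference in the share of hepatocyte markers lay between -1.99 and -1.25 percentage points.

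The replicate numbers did not pair the libraries: deviations of same-numbered libraries correlated at -0.03, -0.03 and -0.02. With the replicate block 1020 genes were called, against 1103 without it, and no library correlated best with its own number. Depth limits Stat5b, Socs2 and Igfbp1, which had at most 16 reads in any library.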
